A study of Mus musculus with 17 samples.

Results

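WT1 binding in podocytes purified 14 days after adriamycin was set against binding in podocytes of vehicle animals, site by site, from the peak lists the authors deposited for these groups. The members are all 23402 peaks of the vehicle list and all 6694 peaks of the day 14 list, 30096 of the 107761 peaks in the 5 lists of the series. A vehicle peak was counted as kept when a day 14 peak overlapped it by at least 1 bp, and as lost otherwise.

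WT1 is a DNA-binding regulator with zinc fingers, on which podocytes depend throughout life. Podocytes are the epithelial cells whose interlocking foot processes cover the glomerular capillaries, and WT1 binds near many of the genes that build those processes and the slit diaphragm between them. Adriamycin (doxorubicin, ADR in the labels) is an anthracycline that injures podocytes and is used in mice to model proteinuric kidney disease.

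The series mapped WT1 by chromatin immunoprecipitation and sequencing (ChIP-seq) in mouse podocytes and glomeruli. Podocytes came from mT/mG-Nphs2cre mice, a fluorescent reporter strain in which the podocin promoter drives the recombinase, labelled wildtype and aged 7 to 8 weeks. The vehicle group received PBS and has 3 libraries with no day in the labels, and the day 14 group received ADR and has 2, although the protocol speaks of 3 independent experiments for these mice. Chromatin was fixed with 1% formaldehyde for 5 min, sheared to 200 to 600 bp and precipitated with the WT1 antibody sc-192. Purified cells were studied in both groups, so podocytes shed or not recovered by day 14 are not represented. Lists from day 9 podocytes of this strain (2 libraries) and from whole glomeruli of BALB/cJ mice (4 PBS and 4 ADR libraries, no day in the labels) are used below only where named. They hold 31949 peaks at day 9, 29082 in PBS glomeruli and 16634 in ADR glomeruli.

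Each group is represented by a single list made from its libraries together, and so no difference had a replicate check. No p-value between groups was computed. Intervals are 95% intervals from the counting error of peaks (Wilson for a share), treat peaks as independent, and do not cover variation between animals. The strength of a peak is its fold enrichment, the authors' ratio of ChIP signal to background at the summit. Median fold was 6.30 in the vehicle list and 6.27 at day 14, and the highest was 102 and 59.2. A fold in one list cannot be read as more or less binding than a fold in another, so changes are read from ranks within a list, and folds given for one site in several lists only describe its peak in each. The weakest peak in the vehicle list had a caller −log10 q of 1.51 and that in the day 14 list 2.25. Sequencing depth is not used here, and fewer bound sites, less WT1 on each site and a less efficient or shallower pair of libraries cannot be told apart. Peaks are given by their positions in mm9, and none was assigned to a gene because no mm9 annotation was at hand.

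Vehicle sites were kept according to their strength. In total 6329 vehicle peaks (27.0% of the list) were kept and 17073 were lost, while 6435 day 14 peaks (96.1%) lay on a vehicle peak. The day 14 list is so much shorter that 1 day 14 peak for each vehicle peak could reach 28.6% at most, and with the vehicle list shortened to the same length by caller p the kept share was 71.2%. The vehicle list was divided into 20 equal bins of fold enrichment. Only 0.342% of peaks in the weakest bin (fold up to 3.09) were kept, 9.83% in bin 10, 22.8% in bin 13 (7.38 to 8.09) and 50.9% in bin 16 (10.1 to 11.6). The share reached 79.2% in bin 18, 90.3% in bin 19 and 98.2% in bin 20, where every fold was at least 24.1. Most of the change from rare to usual retention thus fell in bins 13 to 18.

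Kept and lost were clearly separated in position. The smallest of the 6440 overlaps spanned 77 bp and the median overlap 388.5 bp, so that no match rested on touching edges. Of the lost peaks 67 had a day 14 peak within 200 bp and 762 within 1000 bp. Among the kept peaks 110 held 2 or more day 14 peaks, and they were broad, with a median width of 1473 bp against 654 bp for those holding 1. The reverse was rare, with 5 day 14 peaks covering 2 or more vehicle peaks.

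Among vehicle sites of equal fold, the wide ones were kept more often. Each of the 20 bins was split at its median width, and across bins 31.6% of the wider and 22.5% of the narrower peaks were kept, a difference of 9.11 percentage points (8.33 to 9.88). With 5 classes of width in every bin, the share rose in each step, from 20.6% in the narrowest (median 314 bp) through 23.0, 26.2 and 30.3% to 35.0% in the widest (median 780.5 bp), where rank alone gave 27.0% in each class. In bins 13 to 18 the 5 shares were 33.0, 38.5, 46.7, 57.4 and 68.2%, around 48.7% for all. In bin 15 (fold 8.96 to 10.1), 57.4% of wider and 28.0% of narrower peaks had a day 14 peak. In bin 20 the gap had closed to 99.3% against 97.1%.

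**Figure D1:**
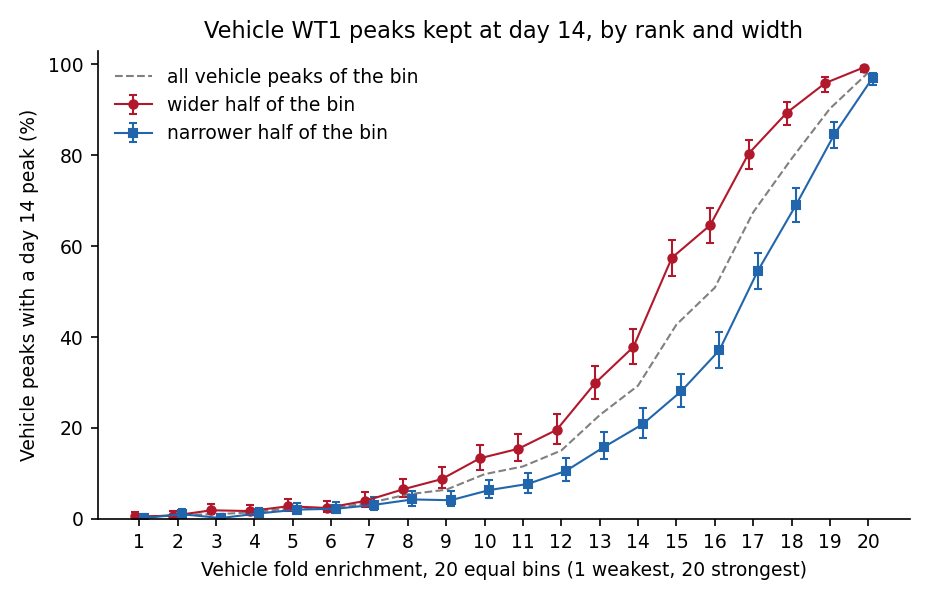
Percent of vehicle WT1 peaks with an overlapping day 14 peak (vertical axis) in 20 equal bins of vehicle fold enrichment (horizontal axis), for the wider (circles) and narrower (squares) peaks of each bin and for all (dashed), with 95% Wilson intervals. The wider peaks lie above the narrower ones from bin 3 upward, with 57.4% against 28.0% in bin 15.

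Width and the caller's p-value moved together, and ranking by p removed most of the width difference. At equal fold, the median −log10 p rose from 13.3 in the narrowest class to 32.7 in the widest. With bins of −log10 p in place of fold, wider minus narrower was 1.90 points (1.09 to 2.70), and with fold and p crossed it was 4.86 points (4.11 to 5.62). The width classes at equal p no longer rose step by step, at 23.1, 27.6, 28.9, 28.8 and 26.8%, and the narrowest class was the lowest. Fold carried more than width at equal p, since 33.9% of peaks of higher fold and 20.3% of lower fold were kept, a difference of 13.7 points (12.9 to 14.4). At equal fold, peaks of higher −log10 p exceeded those of lower by 7.10 points (6.32 to 7.88).

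The number of neighbouring sites made little difference to whether a site was kept. Neighbours were other vehicle summits within 10 kb. The 11398 peaks with no neighbour were kept at 25%, those with 1 at 28.7%, with 2 at 29.3%, with 3 at 28.9%, with 4 at 30.3%, with 5 at 27.2% and with 6 or more at 32.4%. The shares that their folds alone gave were nearly the same, at 24.8, 28.4, 30.0, 30.3, 31.6, 26.7 and 34.6%, so crowded sites were kept more often about as far as they were stronger.

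At equal fold, peaks with 2 or more neighbours were kept 1.15 points less often than isolated ones (25.6 against 26.7%, difference -1.15, -2.11 to -0.181). At equal p the difference was -1.72 (-2.72 to -0.727), and with fold and width held it was -1.95 (-2.90 to -0.996). It was -2.41 (-3.68 to -1.14) in bins 4 to 16 and 1.73 (-0.753 to 4.20) in the 4 strongest bins. When only peaks with −log10 q of 10 or more were used it was -0.127 (SE 0.653), and with neighbours counted within 50 kb it was 0.761 (SE 0.583). Both lay less than 2 SE from 0, and the sign depended on the distance chosen.

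**Figure D2:**
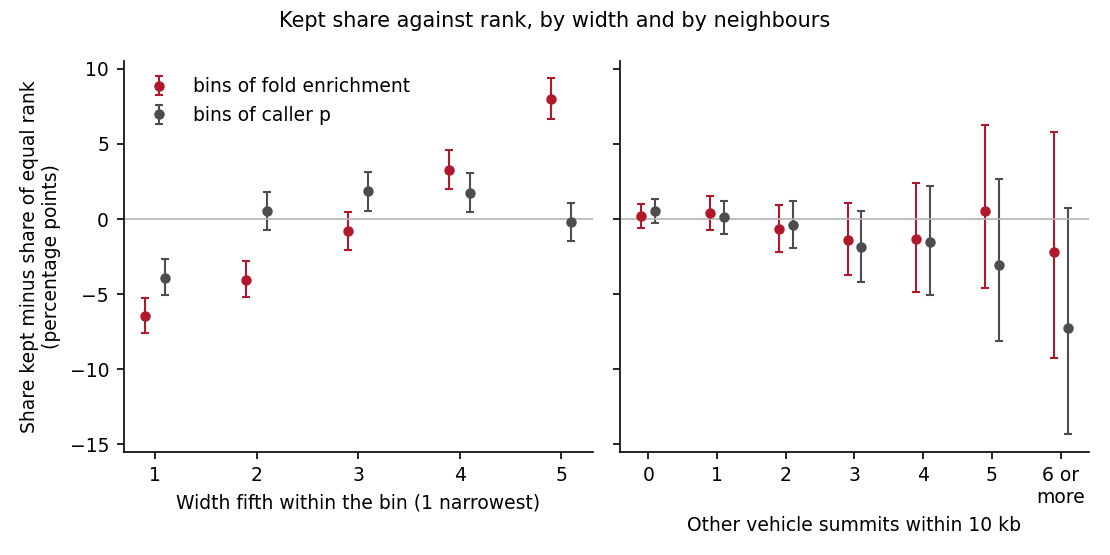
Percent of vehicle peaks kept minus the percent of all peaks of equal rank (vertical axis, percentage points) by width class within bins (left) and by other vehicle summits within 10 kb (right), with 95% Wilson intervals of the kept share. With bins of fold (red) the width classes run from -6.43 to 8.00 points, with bins of caller p (grey) from -3.91 to 1.84, and classes of 0 to 5 neighbours lie within 1.4 points of 0 under fold.

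Crowded loci thinned out to their strongest sites. Vehicle peaks whose summits followed one another at 10 kb or less were joined into chains, and 1660 chains held 3 or more peaks, 6508 in all. No peak was kept in 530 of these chains (31.9%), 1 peak in 600 (36.1%), 2 or more but not all in 499, and every peak in 31 (1.87%). Where 1 peak was kept, it was the strongest of its chain in 521 chains (86.8%).

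Within a chain a site was kept about as often as its own fold gave. The strongest peak was kept in 62.5% of chains, where the bins of fold gave 62.8%, the next in 32.6% (33.3%), the one after in 12.8% (14.4%) and the fourth in 8.90% (9.69%). In the 63 chains of 8 or more peaks, 90.5% kept their strongest peak, and a mean of 9.63 vehicle peaks was reduced to 3.11. The chain with most peaks held 15 at chr13:63333004-63384077, with folds from 4.21 to 43.5, and kept 3 where 4.73 were given by rank.

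**Figure D3:**
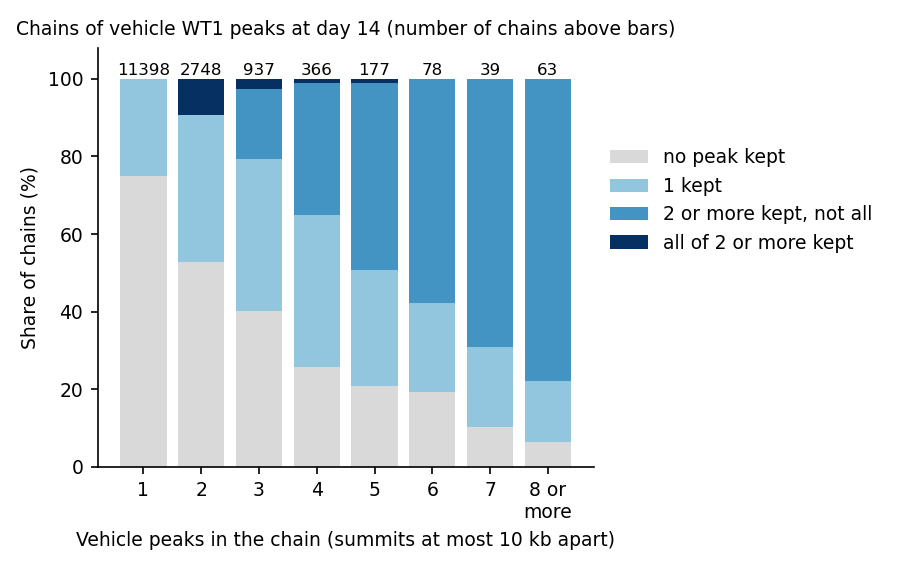
Share of chains of vehicle WT1 peaks (vertical axis, percent) with no peak, 1 peak, several or all peaks kept at day 14, by the number of vehicle peaks in the chain (horizontal axis), with the number of chains above each bar. Loss of a whole locus falls from 75.0% of single peaks to 6.35% of chains of 8 or more, while 77.8% of the latter keep several but not all of their peaks. Longer chains have more peaks that could be kept, and no share expected from rank is given for whole chains.

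Locus by locus, few dense regions departed far from what the ranks of their peaks gave. In the 331 windows of 100 kb with 8 or more vehicle summits, 31.9% of 3170 peaks were kept and 32.0% were expected. The kept share lay within 10 points of expectation in 226 windows, at least 20 points below it in 11 (3.32%) and at least 20 points above in 9 (2.72%). With so few peaks per window each share has a wide interval, and windows at both ends are the extremes of many.

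The window furthest below expectation, chr5:124900001-125000000, kept 0 of 8 vehicle peaks where 3.60 were expected, and a count of 0 of 8 allows a share of up to 37.5%. Its peaks were not weak, with folds of 4.03, 11.98, 14.5, 23.2, 6.07, 7.01, 8.12 and 11.9 in genome order, widths from 279 to 984 bp and −log10 p from 8.32 to 91.4. The same window held 11 summits in day 9 podocytes, 9 in PBS glomeruli and 2 in ADR glomeruli. The site lost with the highest fold there was chr5:124929871-124930400. In chr16:76300001-76400000 0 of 10 peaks were kept against 3.10 expected, which allows up to 30.0%, beside 9 summits at day 9, 11 in PBS glomeruli and 1 in ADR glomeruli. The other low windows kept 1 of 8 (3.44 expected, chr12:21100001-21200000), 1 of 10 (3.84, chr9:62900001-63000000) and 2 of 9 (4.39, chr5:103800001-103900000). Ranked by p, the gap to expectation shrank from -31.0 to -18.1 points in the window on chromosome 16 and from -26.6 to -8.99 in chr5:103800001-103900000.

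At the other end, chr2:30500001-30600000 kept 5 of 8 peaks where 2.23 were expected. The kept peaks had folds of 6.05, 13.8, 8.24, 2.55 and 25.6 and the lost ones 5.11, 4.29 and 3.56. Its excess of 34.6 points was 22.2 when an overlap of 50% of the shorter peak was asked for and 7.05 with a −log10 q of at least 10. The other high windows kept 5 of 8 (2.41 expected, chr7:26500001-26600000), 3 of 8 (0.649, chr11:69400001-69500000), 5 of 10 (2.44, chr8:86700001-86800000) and 3 of 8 (1.10, chr14:77000001-77100000). Their excess of 32.4, 29.4, 25.6 and 23.8 points was 39.8, 12.5, 8.34 and 13.3 with the stricter q and 8.26, 14.7, 9.80 and 28.1 when ranked by p. Both glomerular lists had peaks in all 10 named windows, with fewer summits after ADR than after PBS in 9 of them. The low windows, in the order named, held 2, 1, 4, 5 and 7 ADR glomerular summits. PBS glomeruli had 9, 11, 7, 11 and 13 there. In the high windows the counts were 11, 8, 9, 9 and 4 after ADR and 10, 12, 10, 12 and 7 after PBS. The ADR glomerular list is also the shorter as a whole (16634 against 29082 peaks). The share over all dense windows is not given here.

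The windows with most vehicle peaks, looked up after values were seen, stayed near expectation. In chr11:98600001-98700000, 8 of 20 were kept against 7.11 expected. The window chr6:52100001-52200000 kept 2 of 19 (2.82), chr13:63300001-63400000 3 of 17 (4.77), chr5:64600001-64700000 6 of 17 (7.36) and chr9:63800001-63900000 4 of 16 (4.37). By chromosome, the kept share minus that expected from rank ran from -2.54 points on chromosome 13 (interval -5.20 to 0.301) to 2.26 on chromosome 7 (-0.00037 to 4.65) among the autosomes and was -2.50 on X (-6.26 to 1.60), so no interval of these lay off 0. None of 22 vehicle peaks on Y was kept, where 8.19% were expected and a count of 0 allows up to 13.6%. The mitochondrial genome, with 6 vehicle peaks, lay above expectation and is described below. Neighbouring peaks hardly shared their fate once rank was allowed for: the correlation between peaks of kept minus expected, a description over 3107 pairs of peaks less than 2 kb apart, was 0.080, and 0.012 over 72848 pairs 50 to 200 kb apart, all from the same libraries.

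The strongest lost sites seldom had a peak in injured glomeruli. Of 1170 vehicle peaks in the strongest bin, 21 were lost, and 3 of these (14.3%) had an ADR glomerular peak, against 83.5% of the 1149 kept. A day 9 peak was found at 20 of the 21 and at all 1149 kept sites, and a PBS glomerular peak at 20 and at 98.9%. The lost peaks had a median fold of 28.0 and −log10 p of 115, and the kept ones 31.6 and 163. Only 4 of the 21 belonged to the wider peaks of the bin.

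Leading these was chr4:150555286-150556055, 770 bp wide, with a fold of 39.4 (percentile 98.7 of the vehicle list). Its fold was 27.6 in each of the day 9 and PBS glomerular lists, and it had no ADR glomerular peak. The next, chr15:53154268-53154971 (fold 31.4) and chr3:63916382-63917504 (30.5), had folds of 22.3 and 10.2 at day 9 and none in ADR glomeruli. The others named by rank were chr9:62849303-62849906 (30.0), again with a day 9 peak and no ADR glomerular peak, and chr10:39097992-39098720 (29.8), with folds of 33.4 at day 9 and 5.29 in ADR glomeruli.

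At the weak end, 14 of 2341 peaks in the lowest pair of bins were kept. All 14 had a day 9 peak and 11 an ADR glomerular peak, where 66.8% and 52.3% of the 2327 lost peaks of these bins did. The weakest of these was chr7:135137026-135137382, with a fold of 2.49 in vehicle and 3.59 at day 14. The peak chr2:30599066-30599348 (2.55) ended just before the 25.6-fold vehicle peak of the window on chromosome 2 described above, and its fold at day 9 was 30.6. Those at chrM:13209-13904 and chrM:10986-12473 lie in the mitochondrial genome, and 3 of 6 vehicle peaks there were kept. The folds of these 6 gave an expected share of 0.456%, a gap of 49.5 points (18.3 to 80.8). They were weak by fold but mostly not by p. The 3 kept had a −log10 p of 90.0, 54.2 and 41.2, and the 3 lost 48.1, 27.8 and 6.32. The median was 8.90 for all lost peaks of the lowest 2 bins. The share expected from p is not given for the mitochondrial peaks. The last, chr9:103594278-103594609, had folds of 3.14 in vehicle, 5.63 at day 14 and 11.5 at day 9.

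Sites kept at day 14 were more often those that the injured glomerulus also kept. The glomerular lists come from another strain and preparation and did not enter the choice of peaks. At equal vehicle podocyte fold, 28.0% of sites with a PBS glomerular peak and 18.6% of sites without one were kept, a difference of 9.44 points (7.63 to 11.3). Among sites with a PBS glomerular peak, 38.8% of those that also had an ADR glomerular peak and 23.4% of those that had none were kept, a difference of 15.4 points (14.5 to 16.4). Crossing bins of podocyte and glomerular vehicle fold left 14.7 points. With podocyte peaks ranked by p it was 3.13 points (SE 0.575), with the same direction. Without regard to rank, kept shares were 42.7% of 10949 sites with both glomerular peaks, 18.2% of 7928 with PBS alone, 9.68% of 558 with ADR alone and 3.91% of 3967 with neither.

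Of the 6694 day 14 peaks, 259 had no vehicle peak. These were narrower than the rest (median 295 against 392 bp) and ranked lower in the day 14 list (median percentile 36.1 against 51.1, fold 5.48 against 6.37). Within 10 kb of a vehicle peak lay 76 of them (29.3%), and 10 within 1000 bp. The strongest, chr3:135205239-135205653, had a fold of 12.3 (percentile 87.5 of the day 14 list) and had no other day 14 summit within 10 kb. Next were chr15:102670021-102670463 (12.1), chr19:36859508-36859988 (11.3), chrX:138924610-138925002 (10.4) and chr14:47255911-47256394 (9.91). All 5 had a day 9 peak, with folds from 21.7 to 31.1. The day 9 list is the longest of the series (31949 peaks), and the share of all 259 with a day 9 peak is not given here.

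At sites bound in both lists the order of strength was largely retained. A matched pair was a vehicle peak and a day 14 peak that were each the strongest overlapping the other, which gave 6324 pairs, 6210 of them with 1 peak on either side. Each list's folds were ranked within these pairs, from percentile 0 (weakest) to 100. Spearman's rho across pairs was 0.725 and Pearson's r of log2 fold 0.767, as a description over sites that share their libraries and, being a correlation, free of the scale of either list. The percentile moved by less than 10 points in 44.4% of pairs, rose by 25 points or more in 766 (12.1%) and fell by as much in 655 (10.4%). Of the 100 strongest vehicle pairs 61 were among the 100 strongest at day 14, and the strongest pair was the same in both.

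Narrow sites rose in rank and wide sites fell among the pairs. Within 10 classes of vehicle fold, the narrowest of 5 width classes had a median move of 5.02 points, with 23.4% rising by 25 or more and 7.09% falling by as much. In the widest class the median move was -5.94 points, with 3.73% rising and 13.3% falling. A site enters the pairs only if it had a day 14 peak strong enough to be called, so these moves describe kept sites and are conditioned on the day 14 signal. Ranked by p, the medians were 1.62 and -3.78 points, so the difference between widest and narrowest, -11.0 points by fold, was -5.40 by p. Isolated sites rose by 25 points or more in 14.6% of pairs and sites with 4 or more neighbours in 5.70%, while 9.31 and 13.1% fell by as much. Isolated sites were weaker, and in 20 classes of vehicle fold the shares given by fold alone were 13.6 and 8.44% for a rise and 9.90 and 11.8% for a fall.

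The pair that rose most was chr15:33836857-33837241, with a fold of 6.21 in vehicle (percentile 5.69) and 19.8 at day 14 (96.5). Its peak widened from 385 to 504 bp, while the summits lay 3 bp apart. The fold at day 9 was 73.9, percentile 99.6 of that list. The next were chr3:27225609-27225924 (percentile 4.62 to 90.1), chr8:32631463-32631763 (3.0 to 88.0), chr3:121791302-121791785 (6.57 to 90.6) and chr9:73753816-73754183 (6.78 to 90.1). All 5 stood at percentile 96.9 or higher of the whole day 9 list. Vehicle and day 14 percentiles are ranks among the pairs only, so they cannot be set against those at day 9. In the whole vehicle list the folds of these 5 sites lay in bins 8 to 11 of 20, near its median fold of 6.30. Day 9 and day 14 peaks are each set against the same vehicle peaks. Each of the 5 was wider at day 14 than in vehicle, whereas 187 of all pairs (2.96%) were.

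The pair that fell most was chr11:121655569-121656488, from a fold of 24.2 (percentile 82.2) to 3.53 (6.23), with its width going from 920 to 318 bp. At day 9 its fold was 26.7, percentile 93.3 of that list, and it had a PBS glomerular fold of 27.7 and no ADR glomerular peak. The other falls were chr9:117370861-117371444 (percentile 93.3 to 23.4), chr12:53605667-53606483 (76.3 to 7.05), chr11:6899166-6899820 (93.4 to 26.0) and chr9:111072872-111073512 (83.4 to 16.3). All 5 stood between percentile 88.4 and 94.6 of the whole day 9 list. These cannot be set against the vehicle percentiles, which are ranks among the pairs only. In the whole vehicle list the 5 folds lay in bins 19 and 20 of 20. Those on chromosome 11 and the one at 117370861 on chromosome 9 had no ADR glomerular peak, and the other 2 had one. Among all pairs with a PBS glomerular peak, 4673 also had an ADR one and 1442 had none. Falls of 25 points or more made up 9.97 and 12.3% of these, and rises 9.74 and 16.4%. These pooled shares hide opposite directions across 10 classes of vehicle fold. Pairs without an ADR peak had the higher median move in classes 1 to 5 and the lower in classes 6 to 10. In the weakest class the medians were 11.5 points with an ADR peak and 24.3 without. In the strongest they were -0.490 and -9.56.

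**Figure D4:**
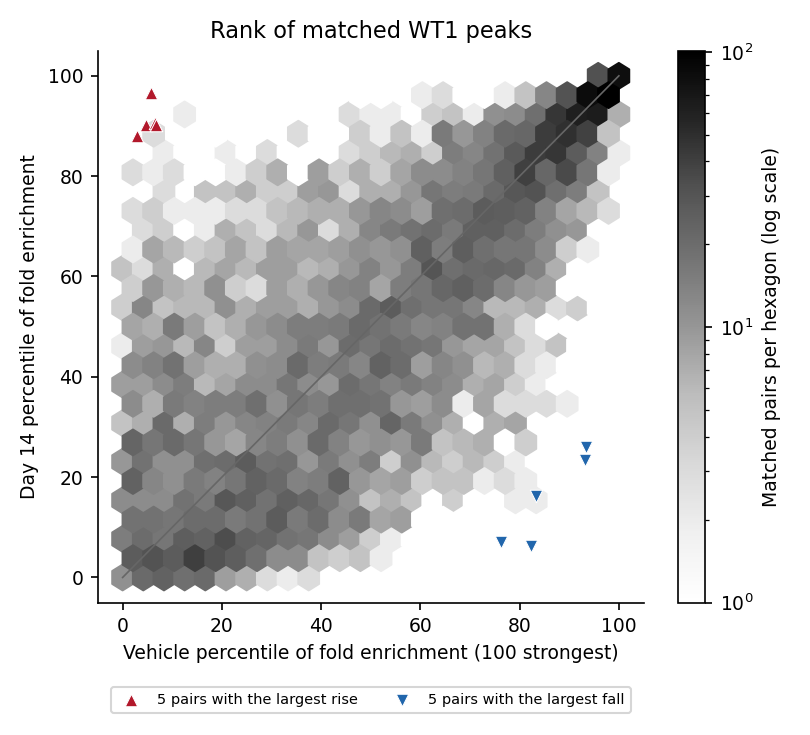
Percentile of fold enrichment among the 6324 matched pairs in vehicle (horizontal axis) and at day 14 (vertical axis), with pairs counted per hexagon on a log scale and a line of equal rank. Triangles mark the 5 largest rises, in the upper left at vehicle percentiles of 6.78 or less, and the 5 largest falls, in the lower right at 76.3 or more.

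Summits stayed in place at nearly all matched sites. The median distance between vehicle and day 14 summits was 24 bp (quartiles 11 and 48), well below the sheared fragment length of 200 to 600 bp. Summits lay within 50 bp in 77.0% of pairs and within 100 bp in 93.4%. Summits lay closer together at stronger sites, with a median of 39 bp in the weakest of 10 classes of vehicle fold and 16 bp in the strongest.

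In 118 pairs (1.87%) the summits were more than 200 bp apart, and in 54 more than 500 bp. The widest of the 5 width classes held 97 of the 118, and their median vehicle width was 1160 bp against 655 bp in the other pairs. In that class 7.70% of pairs moved so far, and in the narrowest 0.157%. Paired peaks must overlap, so their widths limit how far apart the summits can lie. The median vehicle width was 491 bp in the narrowest class and 1057 bp in the widest. The contrast by width thus follows at least in part from the matching rule. Of the 5 largest shifts, 3 were in vehicle peaks that held 2 day 14 peaks.

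The largest summit distance, 1745 bp, was in chr18:61714372-61717129, a vehicle peak of 2758 bp with its summit at 61714944 and a day 14 summit at 61716689. In chr11:87880670-87882653 the distance was 1290 bp and in chr14:121435214-121436955 it was 1277 bp. The last of those named were chr4:59560240-59562952 (1166 bp) and chr1:88337634-88339455 (1163 bp). All 5 vehicle peaks were at least 1742 bp wide, and their day 14 partners were 315 to 670 bp.

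**Figure D5:**
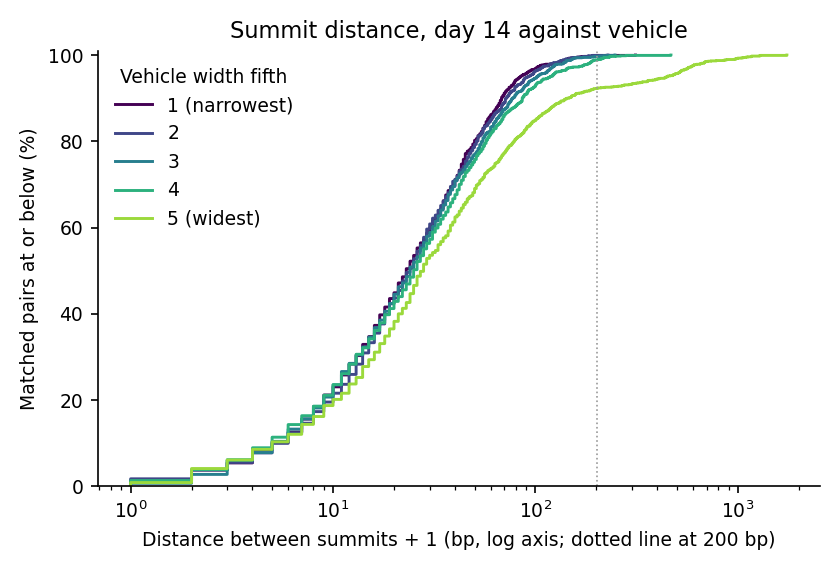
Cumulative percent of matched pairs (vertical axis) by distance between the vehicle and day 14 summits plus 1 bp (horizontal axis, log scale), for 5 classes of vehicle width within 10 classes of vehicle fold. The curves of the narrower 4 classes run close together, and the widest lies below them, with 7.70% of its pairs beyond 200 bp (dotted line).

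Peaks were narrower at day 14 at nearly all matched sites. Median width was 660 bp in vehicle and 393 bp at day 14, and the median ratio of day 14 to vehicle width was 0.615 (quartiles 0.497 and 0.725). The ratio was 0.742 in the narrowest and 0.421 in the widest width class. Those classes were formed on vehicle width, which is also the divisor of the ratio, so part of this trend is built in. Sites that narrowed less rose in rank, with a Spearman's rho between rank move and width ratio of 0.549 across pairs, with both values taken from the same peaks. The lists differed in their lowest −log10 q (1.51 and 2.25), and its part in the widths was not tested.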

How the data were processed

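The submitters' processing notes name Bowtie 0.12.7, MACS2 and the mm9 build. For the combination of libraries, the control, duplicates and the cutoff, no setting is given in the sources used here. The files have the narrowPeak layout and no header. Its fold enrichment is the authors' ratio over background, and its −log10 p and −log10 q are the authors' deposited values from the caller; the first 2 served to rank peaks within a list and the last as a filter. Coordinates are 1-based.

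Kept shares expected from rank are those of all vehicle peaks in the same of 20 bins of fold. Differences at equal rank are averaged over bins by their peaks. Named peaks are the 5 most extreme of each kind in the text (lost, kept, without a vehicle peak, rank rise and fall, summit distance, windows). Members and lists were chosen with earlier results of these data known. Alternatives were other overlap rules, a −log10 q of at least 10, equal list lengths, ranking by p, and other bins, distances and windows. Overlap, bin and pair code was tested on simulated data. Gene lists and WT1 motifs were not analysed, since no mm9 annotation or genome was used here. Overlaps, shares and figures were computed with numpy 2.4.6, pandas 2.3.3 and scipy 1.17.1, drawn with matplotlib 3.10.9, in Python 3.11.15.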

Additional observations from a re-analysis of the deposited data

How the results depend on the processing

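No paired analysis was possible because only 1 list stands for either group, and leaving out single libraries was likewise not feasible. The crossed bins, the pairs formed by p, the rank moves by width and all alternatives for the glomerular comparisons and the chains were added after the data were seen. Of all alternative values, 129 stayed within the interval of the reported value (for named pairs, at a move of 25 points or more), 19 moved beyond it and 1 reversed. The cause was not tested for any. With a −log10 q of at least 10, the kept share was 26.1%, clustered minus isolated -0.127 points, dense windows below expectation 8.77%, Spearman's rho 0.747, pairs moving by 25 points 20.96%, median summit distance 20 bp, summits over 200 bp apart 1.44%, the width ratio 0.646 and the ADR glomerular difference 18.3 points. Lists of equal length gave a kept share of 71.2%. Ranked by p, wider minus narrower was 1.90 points (4.86 with fold and p crossed), the PBS glomerular difference 7.22, the ADR glomerular difference 3.13, and the median rank move of the widest less the narrowest pairs -5.40. Clustered minus isolated reversed to 0.761 points with neighbours within 50 kb. Chains with no peak kept were 35.9% with links of 5 kb and 24.2% with 50 kb, windows below expectation 1.19% at 50 kb, and summits over 200 bp apart 1.27% in pairs of single peaks. The 60 values for named windows kept their direction, but 10 of them, in 7 windows, differed by more than 1.5 times within wide intervals. The 31 for named pairs kept their direction and differed by less.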
